A study of Homo sapiens with 12 samples.

Results

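EGI-1 is an established human cholangiocarcinoma cell line, and the measurements described here are its RNA after decitabine and talazoparib given together, set against its RNA after vehicle. They come from 4 of the 12 RNA-seq libraries of the series: all libraries of EGI-1 treated with the combination (2) and with vehicle (2), chosen by the labels. The study asked whether inhibition of poly(ADP-ribose) polymerase adds to the effect of a DNA methyltransferase inhibitor in bile duct cancer. The 8 EGI-1 libraries comprised 2 each of vehicle (DMSO), decitabine at 0.5 µM, talazoparib at 200 nM and the combination of both agents at these doses, all from cells in 6-well plates harvested 72 h after dosing. The other 4 libraries are of the line HUCCT1 and were not used here. Nothing in the labels says that the replicates were separate cultures, so p-values measure the spread between these libraries, which may be technical, and 1 cell line stands for the tumour type. The subject is gene lists other than the inflammatory, cell cycle and senescence lists drawn by the study. Single genes were left out only if they were histone genes or in its heat map. Genes named below may therefore also belong to the study's inflammatory or cell cycle lists, and their changes are not separate from those.

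Decitabine is a deoxycytidine analogue that is built into replicating DNA, where it traps DNA methyltransferases, so that methylation at CpG sites is lost as cells divide. Talazoparib inhibits the poly(ADP-ribose) polymerases and holds them on damaged DNA. Cholangiocytes, the cells from which bile duct tumours take their name, are epithelial cells that carry keratins, tight junctions and ion transporters along the duct lumen, and their tumours make their own basement membrane and protease inhibitors.

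Read counts summed to 28864175 and 26152270 in the vehicle libraries and to 23229034 and 29217007 in the combination libraries. Levels are given below as CPM, read counts scaled to library size with trimmed mean of M-values (TMM) factors, and replicates are listed in order, 1 then 2. The biliary character of the line was visible in 8 of 10 marker genes that reached 1 CPM in at least 1 library, whereas ONECUT1 and SPP1 had at most 3 counts in each library of each arm. KRT19, a duct keratin, had 1559 and 1642 CPM with vehicle and 1635 and 1585 with the combination, and EPCAM, an epithelial surface protein, 297 and 295 and 297 and 296; neither passed the test. SOX9, a transcription factor of the duct lineage, rose from 139.6 and 149 CPM with vehicle to 276 and 275 with the combination (log2 fold change 0.93, SE 0.059, edgeR adjusted p = 7.39e-09). KRT7, another duct keratin, rose from 41.2 and 44.9 to 73.1 and 67.1 CPM (log2 fold change 0.70, SE 0.079, edgeR adjusted p = 6.98e-06). The library kit kept strand, but whether counting used it is not stated. Reads of a gene and of one overlapping it on the other strand therefore cannot be told apart. Counts of named genes in this report leave out PECAM1, CLDN5, CSF1R, LYZ, CD14, LCK and SERPINA1. Of the 122 other tested genes named here, 68 have such a neighbour.

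Combination replicate 2 stood apart from every other EGI-1 library by transcripts of lymphocytes. In it, 62 genes had at least 30 counts while no other EGI-1 library had more than 5, and each of the other libraries had between 0 and 2 such genes. None of the 62 passed the filter on low counts, which needs a level in 2 libraries, so none was tested. Of 30 lymphocyte genes listed after this was seen, 28 had at least 10 counts in combination replicate 2, against 4 or 5 in each of the other 7 libraries. Their summed level was 116 CPM there, 10.5 in combination replicate 1, 4.92 and 6.78 with vehicle, and between 7.02 and 9.59 with the single agents. In each of the other 7 libraries LCK had the highest count of the 30 genes. It had 68 and 68 counts with vehicle, 87 to 158 with the single agents, and 159 and 338 in combination replicates 1 and 2. The sums outside combination replicate 2 thus rest largely on LCK. In combination replicate 1, 13 of the 30 genes had 0 counts, against 15 and 16 with vehicle and 1 in combination replicate 2. PTPRC, the common leukocyte antigen, had 381 counts in that library and at most 7 elsewhere. CD3E, part of the T cell receptor complex, had 148 and at most 4, and IGKC, the immunoglobulin kappa constant gene, had 247 and at most 4. The 8 leukocyte markers chosen earlier summed to 7.77 to 8.28 CPM with vehicle, and to 10.6 and 32.3 CPM in combination replicates 1 and 2. Among them PTPRC was at 0.0858 and 13.1 CPM and CD3E at 0.0 and 5.1 CPM in combination replicates 1 and 2. Other markers of that list did not follow this pattern. CSF1R had 3.5 and 3.86 CPM with vehicle and 6.26 and 6.97 with the combination. LYZ had 0.866 and 0.72 CPM with vehicle and 1.63 and 2.9 with the combination. CD14 had 3.33 and 2.88 CPM with vehicle and 1.97 and 2.45 with the combination. CD79A, CD68 and NKG7 stayed below 1 CPM in these libraries. How far the lymphocyte transcripts of combination replicate 2 enter a difference was not tested, but counts of called genes are given below also without that library.

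The combination shifted many genes by small amounts. Of 22406 genes tested with edgeR's quasi-likelihood test over all 8 EGI-1 libraries, 4194 (18.7%) had a Benjamini-Hochberg adjusted p under 0.05 against vehicle, 2489 (11.1%) higher and 1705 (7.61%) lower, and 6918 had an unadjusted p under 0.05. The median log2 fold change over all genes tested was -0.02. Among genes called higher 566 rose 2-fold or more and 1425 by less than 1.5-fold, and among genes called lower 282 fell 2-fold or more and 1092 by less than 1.5-fold. With upper-quartile in place of TMM scaling the median was -0.06 and the split was 2177 higher and 2244 lower, so that 49.2% of calls were higher against 59.3% with TMM. Each called gene had both combination libraries on one side of both vehicle libraries, as did 60.5% of all genes tested. Leaving out combination replicate 2 left 1618 genes higher and 905 lower, of which 1569 and 809 were among those called with all libraries. Without combination replicate 1 the counts were 1954 and 1022, without vehicle replicate 1 they were 1273 and 692, and without vehicle replicate 2 they were 1236 and 614. In all 4 of these fits together, 990 of the genes called higher and 461 of those called lower kept their call. Of the 119 called genes named in the text, 112 kept their call with each of the 8 libraries left out, and the other 7 are pointed out where they appear. No gene list whose median lay more than 0.05 from 0 changed the sign of its median under the other scalings. For gene lists below, counts in parentheses after the word omitting are those of the same sentence, in the same order, with vehicle replicate 1, vehicle replicate 2, combination replicate 1 and combination replicate 2 left out in turn, given where one of these fits moved a count over 1.5-fold. A list's median is likewise given without a library where that turned its sign or moved it over 1.5-fold. Counts of called members stand against the 11.1% higher and 7.61% lower, 18.7% in all, over all genes tested. Protein-coding genes alone had larger shares, 16.8% higher and 9.63% lower. A list of such genes somewhat above the all-gene share can thus lie near the share of its class.

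**Figure D1:**
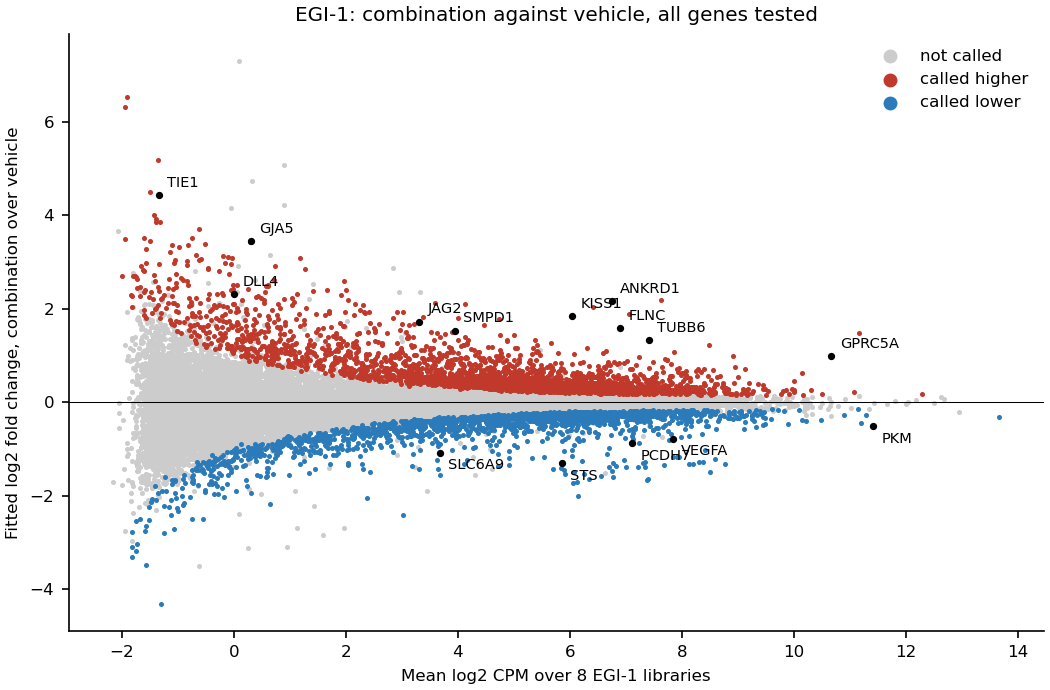
Fitted log2 fold change of the combination over vehicle (vertical axis) against mean log2 CPM over the 8 EGI-1 libraries (horizontal axis), 1 point per gene tested. Red and blue mark genes called higher (2489) and lower (1705), grey marks the rest, and black points are genes named in the text. TIE1 and GJA5 lie at the end of low level and large change, GPRC5A and PKM at the end of high level.

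Among the genes that rose with the smallest p-values or the largest differences in level were secreted, cytoskeletal and cell surface proteins. ANKRD1, an ankyrin repeat protein known as a target of the YAP and TEAD factors, had 43.0 and 40.7 CPM in the vehicle and 181 and 195 CPM in the combination libraries (log2 fold change 2.17, SE 0.081, edgeR adjusted p = 2.97e-11). CCN1, a secreted matrix protein known from the same factors, had 377 and 367 CPM with vehicle and 623 and 629.9 with the combination (log2 fold change 0.75, SE 0.055, edgeR adjusted p = 4.22e-08). KISS1, the precursor of the peptide kisspeptin, went from 30.8 and 30.1 to 105 and 113 CPM (log2 fold change 1.84, SE 0.087, edgeR adjusted p = 2.99e-10). The genes of this paragraph were chosen by p-value or difference and by libraries apart from vehicle. The gap between their arms and the small spread within them follow from that choice. GPRC5A, an orphan receptor induced by retinoic acid, had 1136 and 1121 CPM with vehicle and 2190 and 2283 with the combination (log2 fold change 0.99, SE 0.048, edgeR adjusted p = 3.43e-10), and its relative GPRC5B had 4.64 and 4.51 CPM with vehicle and 20.6 and 19.6 with the combination (log2 fold change 2.13, SE 0.12, edgeR adjusted p = 1.40e-09). TGM2, a transglutaminase that cross-links proteins, had 331 and 322 CPM with vehicle and 653 and 638 with the combination (log2 fold change 0.98, SE 0.054, edgeR adjusted p = 1.40e-09). AKAP12, a scaffold that anchors protein kinase A, had 65.1 and 64.1 CPM with vehicle and 237 and 244 with the combination (log2 fold change 1.90, SE 0.091, edgeR adjusted p = 1.50e-09). MCAM, an adhesion molecule of the immunoglobulin family, had 159 and 154 CPM with vehicle and 338 and 322 with the combination (log2 fold change 1.07, SE 0.058, edgeR adjusted p = 1.04e-09), and IL11, a cytokine that signals through gp130, had 6.96 and 7.24 CPM with vehicle and 31.6 and 29.9 with the combination (log2 fold change 2.12, SE 0.11, edgeR adjusted p = 1.04e-09). All of these kept their call with each library left out.

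Each single agent was also compared with the same vehicle libraries, so the 3 comparisons share those libraries and their values are given side by side without a correlation. For ANKRD1 the log2 fold change was 0.83 with decitabine, 1.58 with talazoparib and 2.17 with the combination, and for GPRC5A it was 0.37, 0.59 and 0.99. KISS1 had 0.53, 1.40 and 1.84, and AKAP12 0.68, 0.95 and 1.90. The combination differed from decitabine in 1720 genes (7.68%) and from talazoparib in 431 genes (1.92%) at an adjusted p under 0.05. Of the genes called higher than vehicle, 950 were also higher than with decitabine, 292 higher than with talazoparib and 233 higher than in all 3 other arms. The same counts for genes called lower were 663, 121 and 106. These counts, and the direct tests below, reuse the combination libraries by which the genes were called against vehicle. A difference in the same direction was therefore favoured beforehand. The direct test put the combination above talazoparib for ANKRD1 (edgeR adjusted p = 2.76e-04), GPRC5A (1.12e-04), AKAP12 (1.78e-05) and KISS1 (0.00712), whereas for CCN1 the combination was not separated from talazoparib (edgeR adjusted p = 0.0975). These counts moved with single libraries: the number of genes separating the combination from talazoparib was 1007 and 993 without decitabine replicates 1 and 2, 230 and 229 without vehicle replicates 1 and 2 and 111 without talazoparib replicate 2, it was 0.687% of genes tested without talazoparib replicate 1 and 0.642% without combination replicate 2, and that from decitabine was 853 without combination replicate 2 and 1105 without combination replicate 1.

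**Figure D2:**
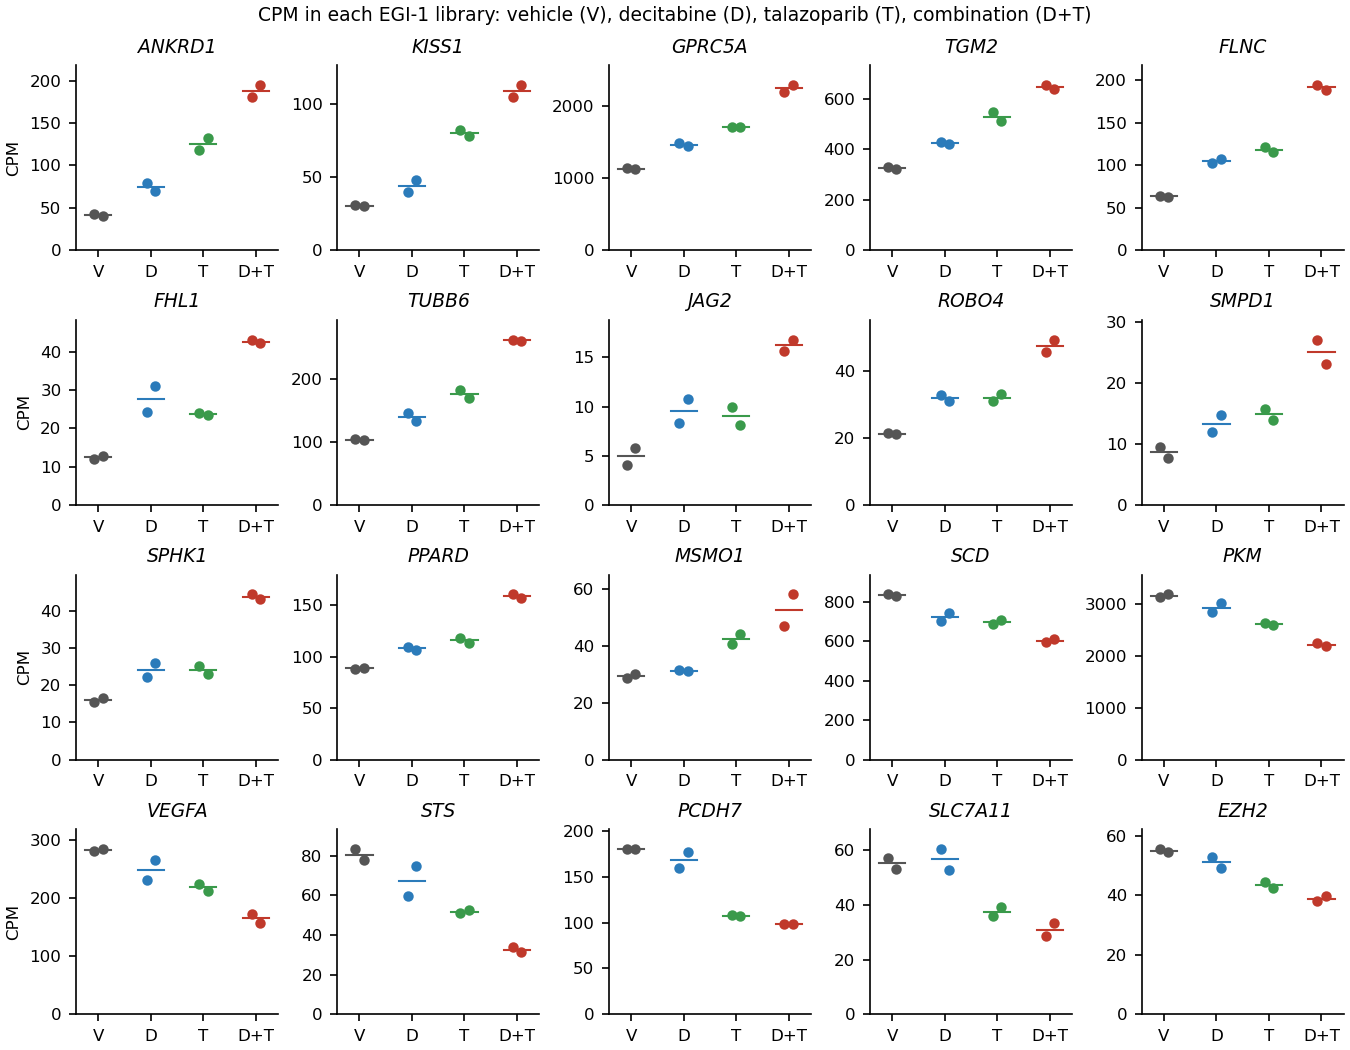
CPM in each EGI-1 library for 20 genes named in the text (V, vehicle; D, decitabine; T, talazoparib; D+T, combination). Points are libraries, lines are the mean of the 2 libraries of an arm, and each vertical axis starts at 0. In every panel the combination libraries lie beyond both vehicle libraries, which the rule for naming genes required.

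Since decitabine acts on CpG methylation, the promoter windows of 4 genes that rose are shown, from 250 bases before to 50 bases after the gene start, with every CG in capitals (RefSeq, GRCh38.p14, read 5′ to 3′ on the strand of the gene). ANKRD1 (chr10:90921038-90921337, minus strand) holds 5 and TIE1 (chr1:43300732-43301031, plus strand) holds 1, whereas FLNC (chr7:128830156-128830455, plus strand) holds 42 and JAG2 (chr14:105168727-105169026, minus strand) holds 46.
ANKRD1: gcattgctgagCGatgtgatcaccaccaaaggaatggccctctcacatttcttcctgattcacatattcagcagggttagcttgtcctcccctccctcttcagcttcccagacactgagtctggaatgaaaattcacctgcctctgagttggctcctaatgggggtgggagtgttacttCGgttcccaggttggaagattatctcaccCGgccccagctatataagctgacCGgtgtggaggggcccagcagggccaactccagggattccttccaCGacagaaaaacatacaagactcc
TIE1: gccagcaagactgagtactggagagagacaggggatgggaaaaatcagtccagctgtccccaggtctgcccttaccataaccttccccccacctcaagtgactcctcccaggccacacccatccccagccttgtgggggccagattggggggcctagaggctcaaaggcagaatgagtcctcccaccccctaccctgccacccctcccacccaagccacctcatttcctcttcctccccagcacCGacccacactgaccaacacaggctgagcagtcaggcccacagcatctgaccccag
FLNC: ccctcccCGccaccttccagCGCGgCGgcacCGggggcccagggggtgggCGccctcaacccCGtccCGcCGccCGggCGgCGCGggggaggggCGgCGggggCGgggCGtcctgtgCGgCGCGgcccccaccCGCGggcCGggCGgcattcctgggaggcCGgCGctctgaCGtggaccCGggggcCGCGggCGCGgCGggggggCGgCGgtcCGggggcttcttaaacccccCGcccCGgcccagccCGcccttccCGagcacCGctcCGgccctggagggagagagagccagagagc
JAG2: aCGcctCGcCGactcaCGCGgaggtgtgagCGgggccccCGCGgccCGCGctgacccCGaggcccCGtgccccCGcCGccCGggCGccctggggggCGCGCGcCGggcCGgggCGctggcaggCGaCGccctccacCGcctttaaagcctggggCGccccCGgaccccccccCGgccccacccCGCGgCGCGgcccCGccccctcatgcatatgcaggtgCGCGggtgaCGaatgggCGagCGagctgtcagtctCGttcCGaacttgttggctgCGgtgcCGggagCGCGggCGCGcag
Windows poor and rich in CG are thus both found among genes that rose. Of the protein-coding genes tested, 11071 had such a window matched by symbol and their median was 26 CG per window. The median was 26 over 1794 genes called higher and 25 over 1086 called lower. Where the window held 0 to 4 CG, 17.4% of genes were called higher and 7.52% lower, and for 5 to 9 CG the shares were 21.5% and 12.3%. They were 14.6% and 11.4% for 10 to 19 CG, 14.5% and 9.10% for 20 to 29, and 17.0% and 9.66% for 30 or more, with no steady order across these ranges. Methylation itself was not measured in these libraries.

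Genes of the actin cytoskeleton were among those that rose. Of 38 tested members of a list of actin proteins and known targets of serum response factor (SRF), 18 rose and 4 fell (omitting 11 and 2, 12 and 2, 14 and 3, 15 and 3), with a median log2 fold change of 0.15 against -0.02 over all genes. FLNC, filamin C, which cross-links actin, had 64.2 and 62.97 CPM with vehicle and 194 and 189 with the combination (log2 fold change 1.59, SE 0.063, edgeR adjusted p = 2.97e-11). FHL1, a LIM domain protein of muscle and stress fibres, had 12.1 and 12.8 CPM with vehicle and 43.1 and 42.2 with the combination (log2 fold change 1.78, SE 0.11, edgeR adjusted p = 4.33e-09). MYL9, a myosin regulatory light chain, had 2.18 and 1.97 CPM with vehicle and 8.88 and 7.52 with the combination (log2 fold change 1.97, SE 0.19, edgeR adjusted p = 1.33e-06). The combination was above talazoparib for FLNC (edgeR adjusted p = 4.43e-06), FHL1 (1.25e-04) and MYL9 (0.0291). MRTFB, a coactivator of SRF, fell (104 and 104 CPM with vehicle, 74.0 and 77.1 with the combination, log2 fold change -0.47). The CArG box, the motif bound by SRF, was found in 6 of the 32 windows available for this list, in 1 of the 14 whose gene rose, and in 1.07% of the windows of all genes tested, with the first window listed for a gene searched.

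Among the tubulins, TUBB6 had 104 and 104 CPM with vehicle and 262 and 260.0 with the combination (log2 fold change 1.33, SE 0.063, edgeR adjusted p = 3.11e-10), and TUBB2A had 12.4 and 11.9 CPM with vehicle and 21.5 and 25.3 with the combination (log2 fold change 0.95, SE 0.11, edgeR adjusted p = 1.00e-05). Both are beta tubulins with near-identical relatives, among which reads may be split. In all, 4 of 18 tubulin genes rose and 1 fell (omitting 3 and 1, 3 and 0, 3 and 1, 3 and 1), and the median was -0.11, which turned to 0.04 without combination replicate 2 and was -0.07 without combination replicate 1.

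Contacts between cells and matrix changed gene by gene. Of 21 integrins 6 rose and 1 fell (omitting 5 and 0, 5 and 0, 7 and 0, 5 and 0). ITGA5, the fibronectin receptor alpha chain, had 53.1 and 56.5 CPM with vehicle and 97.4 and 101 with the combination (log2 fold change 0.86, SE 0.071, edgeR adjusted p = 1.99e-07). ITGB2, a leukocyte integrin, had 2.22 and 1.97 CPM with vehicle and 3.90 and 7.45 with the combination (log2 fold change 1.45, SE 0.27, edgeR adjusted p = 0.00129), and its level in the library with lymphocyte transcripts was the higher one; without that library its log2 fold change was 0.90 and its call held. Among 25 basement membrane genes 6 rose and 5 fell (omitting 5 and 2, 4 and 3, 6 and 3, 5 and 2). FBLN1, the matrix protein fibulin 1, rose from 75.7 and 72.9 to 128 and 119.5 CPM (log2 fold change 0.74, SE 0.084, edgeR adjusted p = 8.53e-06). LAMB3 and LAMA3, chains of laminin-332 that anchors epithelia, rose from 914 and 937 to 1433 and 1408 CPM and from 297 and 297 to 429.5 and 444 CPM (log2 fold change 0.62 and 0.56). LAMA5, the alpha chain of laminin-511, fell from 774 and 778 to 559 and 511 CPM, and TNC, the matrix protein tenascin C, from 187 and 178 to 105 and 107 CPM (log2 fold change -0.54 and -0.79). Chains of laminin-332 were thus higher while the alpha chain of laminin-511 was lower.

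Junction genes showed a similar mixture. Of 24 desmosome and gap junction genes 9 rose and 2 fell (omitting 5 and 1, 3 and 1, 6 and 1, 6 and 2), and of 27 tight junction genes 7 rose and 3 fell (omitting 1 and 1, 3 and 1, 4 and 1, 3 and 2). GJA5, connexin 40, had 0.277 and 0.19 CPM with vehicle and 2.75 and 2.48 with the combination (log2 fold change 3.45, SE 0.39, edgeR adjusted p = 6.40e-06). TJP3, a scaffold of tight junctions, had 40.9 and 41.4 CPM with vehicle and 20.4 and 19.5 with the combination (log2 fold change -1.04, SE 0.15, edgeR adjusted p = 4.04e-04), and it was 29.8 and 43.95 with decitabine and 23.5 and 20.9 with talazoparib. For TJP3 the talazoparib and the combination libraries both lay below the vehicle libraries, and the combination was not separated from talazoparib (edgeR adjusted p = 0.744). For GJA5 the combination was separated from decitabine (edgeR adjusted p = 1.94e-04) and not from talazoparib (0.143).

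Notch signalling passes between neighbouring cells and helps to set duct identity in liver. Of 28 Notch pathway genes 8 rose and 5 fell (omitting 4 and 3, 6 and 3, 5 and 3, 4 and 3). The ligands JAG2 and DLL4 rose, JAG2 from 4.09 and 5.76 to 15.6 and 16.8 CPM (log2 fold change 1.72, SE 0.17, edgeR adjusted p = 1.47e-06) and DLL4 from 0.346 and 0.379 to 2.10 and 1.55 CPM (log2 fold change 2.31, SE 0.38, edgeR adjusted p = 3.13e-04). LFNG, a glycosyltransferase that modifies Notch receptors and alters which ligand they answer, fell from 27.5 and 26.7 to 13.6 and 14.3 CPM (log2 fold change -0.96, SE 0.12, edgeR adjusted p = 2.85e-05). DTX4, a deltex ubiquitin ligase of the pathway, fell from 146 and 148 to 111 and 110.2 CPM (log2 fold change -0.41). The 4 genes named kept their calls with each library left out.

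Of 38 semaphorin, plexin, slit and netrin genes, which guide axons and vessels, 14 rose and 6 fell (omitting 7 and 2, 9 and 1, 10 and 4, 11 and 1), and the median was 0.05, or 0.12 without vehicle replicate 2 and 0.09 without combination replicate 2. ROBO4, a slit family receptor known from endothelium, had 21.3 and 21.2 CPM with vehicle and 45.6 and 49.3 with the combination (log2 fold change 1.16, SE 0.084, edgeR adjusted p = 3.88e-08), and SLIT2, a ligand of this receptor family, had 2.29 and 3.87 CPM with vehicle and 7.25 and 6.93 with the combination (log2 fold change 1.21, SE 0.22, edgeR adjusted p = 7.38e-04). ROBO4 was higher with the combination than with decitabine (edgeR adjusted p = 2.37e-04) and than with talazoparib (8.32e-04). NRP2, a coreceptor for semaphorins and for vascular endothelial growth factors, fell from 89.9 and 88.7 to 51.0 and 49.9 CPM (log2 fold change -0.82, SE 0.065, edgeR adjusted p = 1.08e-07). VEGFA, the vascular endothelial growth factor induced by hypoxia, fell from 282 and 285 to 174 and 158 CPM (log2 fold change -0.77, SE 0.07, edgeR adjusted p = 5.25e-07). Its relative PGF, placental growth factor, rose from 8.94 and 8.26 to 18.1 and 16 CPM, as did PDGFB, the platelet-derived growth factor B chain, from 74.5 and 71.4 to 119 and 116 CPM (log2 fold change 0.98 and 0.69). Of the 18 ligands and receptors of these growth factor families 3 rose and 6 fell (omitting 3 and 4, 3 and 3, 3 and 3, 3 and 5).

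Feedback genes of the MAP kinase pathway rose in 9 of 22 cases and fell in 2 (omitting 6 and 1, 6 and 1, 7 and 1, 7 and 1), with a median of 0.18, or 0.11 without vehicle replicate 1. DUSP5, a nuclear phosphatase of ERK, had 148 and 149.9 CPM with vehicle and 284 and 275 with the combination (log2 fold change 0.91, SE 0.076, edgeR adjusted p = 3.15e-07). RASAL1, a GTPase-activating protein of Ras, had 6.20 and 6.86 CPM with vehicle and 12.4 and 12.3 with the combination (log2 fold change 0.92, SE 0.14, edgeR adjusted p = 1.95e-04). PHLDA1, which is also induced by ERK signalling, went the other way, from 316 and 316 to 205 and 224 CPM (log2 fold change -0.56, SE 0.058, edgeR adjusted p = 2.67e-06). Among 16 FGF ligands and receptors FGFR4, a receptor for FGF19, had 18.6 and 17.6 CPM with vehicle and 33.1 and 32.7 with the combination (log2 fold change 0.86, SE 0.10, edgeR adjusted p = 1.19e-05), and FGF14, the other member called, fell (15.4 and 15.8 CPM with vehicle, 10.8 and 12.1 with the combination, log2 fold change -0.44) but lost its call without vehicle replicate 1, vehicle replicate 2 or combination replicate 1. In the BMP pathway 4 of 30 rose and 4 fell (omitting 2 and 3, 2 and 3, 3 and 3, 2 and 2), among them NOG, an extracellular BMP antagonist (21.2 and 23.1 CPM with vehicle, 39.4 and 36.9 with the combination, log2 fold change 0.79), and BMP4 (73.7 and 76.8 CPM with vehicle, 53.6 and 46.4 with the combination, log2 fold change -0.59). Of the BMP list 26.7% were called, against 18.7% of all genes tested. Protein-coding genes alone had 16.8% called higher and 9.63% lower, so this list did not stand out from them. NOG was at 45.8 and 36.6 CPM with talazoparib alone and was not separated from it in the combination (edgeR adjusted p = 0.737).

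Genes of sterol synthesis were called higher more often than those of any other list with at least 10 members tested. Of 25 genes of cholesterol synthesis and uptake 16 rose and 1 fell (omitting 11 and 0, 8 and 0, 13 and 0, 11 and 0), against 11.1% and 7.61% of all genes, and the median log2 fold change was 0.27. MSMO1, the sterol C4-methyl oxidase, had 28.7 and 30.1 CPM with vehicle and 46.8 and 58.0 with the combination (log2 fold change 0.84, SE 0.096, edgeR adjusted p = 7.68e-06). TM7SF2, a sterol reductase, had 23.9 and 23.5 CPM with vehicle and 37.4 and 38.2 with the combination (log2 fold change 0.67, SE 0.084, edgeR adjusted p = 2.10e-05). LSS, lanosterol synthase, had 18.2 and 15.6 CPM with vehicle and 25.1 and 38.8 with the combination (log2 fold change 0.92, SE 0.18, edgeR adjusted p = 0.00698), with a wider gap between the combination replicates, and its log2 fold change was 0.57 without combination replicate 2. It lost its call without vehicle replicate 2, without either decitabine library, which share the estimate of spread, and in the fit of the vehicle and combination libraries alone. INSIG1, which retains the sterol-sensing complex in the endoplasmic reticulum, was the member that fell (121 and 118 CPM with vehicle, 102 and 102 with the combination, log2 fold change -0.23), and it lost its call when any of the 4 vehicle and combination libraries was left out. The list's median was -0.01 with decitabine alone and 0.28 with talazoparib alone, and in 12 of 25 members the combination differed from decitabine, in 1 from talazoparib. A sterol regulatory element (TCACNCCAC on either strand) was found in 1 of 18 windows of this list, in 0 of the 11 whose gene rose, and in 1.14% of the windows of all genes tested.

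Fatty acid synthesis moved in both directions, 4 of 17 genes rising and 4 falling (omitting 3 and 4, 4 and 3, 4 and 4, 3 and 3). SREBF1, the transcription factor of lipogenesis, fell from 324 and 324 to 198 and 188 CPM (log2 fold change -0.75, SE 0.079, edgeR adjusted p = 5.04e-06), and SCD, the stearoyl-CoA desaturase, fell from 839 and 831 to 596 and 612 CPM (log2 fold change -0.47, SE 0.051, edgeR adjusted p = 4.96e-06). ACLY, which makes cytosolic acetyl-CoA for both sterols and fatty acids, rose from 518 and 509 to 686 and 683 CPM (log2 fold change 0.42, SE 0.05, edgeR adjusted p = 1.42e-05). Lysosomal genes rose in 18 of 55 cases and fell in 1 (omitting 11 and 0, 11 and 1, 16 and 1, 12 and 0), with a median of 0.14. SMPD1, acid sphingomyelinase, had 9.56 and 7.69 CPM with vehicle and 27.1 and 23.1 with the combination (log2 fold change 1.54, SE 0.14, edgeR adjusted p = 4.49e-07), and was above talazoparib alone (edgeR adjusted p = 0.0042). CTSS, cathepsin S, a lysosomal protease that antigen-presenting cells also carry, had 7.28 and 7.35 CPM with vehicle and 12.1 and 15.8 with the combination (log2 fold change 0.94, SE 0.14, edgeR adjusted p = 1.08e-04), the higher value in the library with lymphocyte transcripts. Of 41 genes of sphingolipid and eicosanoid enzymes 9 rose and 4 fell (omitting 4 and 2, 6 and 2, 10 and 3, 4 and 3). SPHK1, the kinase that makes sphingosine-1-phosphate, rose from 15.4 and 16.6 to 44.4 and 43.0 CPM (log2 fold change 1.45, SE 0.099, edgeR adjusted p = 1.78e-08), and SGPP2, a phosphatase that acts on that lipid, fell from 87.0 and 88.1 to 56.0 and 57.5 CPM (log2 fold change -0.63, SE 0.071, edgeR adjusted p = 7.70e-06). SPHK1 with the combination lay above decitabine (edgeR adjusted p = 1.66e-05) and above talazoparib (4.45e-05).

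Glycolysis genes fell in 7 of 23 cases and rose in 5 (omitting 6 and 5, 5 and 2, 7 and 5, 5 and 3). The abundant enzymes were among those that fell. PKM, pyruvate kinase, had 3143 and 3194 CPM with vehicle, 2847 and 3019 with decitabine, 2641 and 2602 with talazoparib and 2260 and 2187 with the combination (log2 fold change -0.51, SE 0.047, edgeR adjusted p = 7.10e-07). LDHA, lactate dehydrogenase A, fell from 2665 and 2600 to 1910 and 1970 CPM (log2 fold change -0.44, SE 0.046, edgeR adjusted p = 2.88e-06). GAPDH and ENO1 fell by less (log2 fold change -0.26 and -0.27), and neither passed a test against a minimum change of 1.2-fold. SLC2A3, the glucose transporter GLUT3, rose from 9.04 and 9.93 to 23.8 and 23.9 CPM (log2 fold change 1.33, SE 0.18, edgeR adjusted p = 2.11e-04). Of 23 hypoxia targets 7 fell and 1 rose (omitting 5 and 1, 4 and 1, 6 and 1, 5 and 1), EGLN3, a prolyl hydroxylase, among them (16.6 and 16.7 CPM with vehicle, 10.5 and 10.8 with the combination, log2 fold change -0.65).

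Genes of antioxidant defence and of amino acid supply were called lower at shares above the 7.61% of all genes. Of 35 genes of oxidative stress defence, most of them known targets of NRF2, 15 fell and 3 rose (omitting 11 and 2, 9 and 1, 10 and 3, 9 and 2), with a median of -0.18. SLC7A11, the cystine transporter that feeds glutathione synthesis, had 57.1 and 53.3 CPM with vehicle and 28.5 and 33.2 with the combination (log2 fold change -0.84, SE 0.092, edgeR adjusted p = 5.32e-06). FTL, the ferritin light chain, fell from 1235 and 1272 to 958 and 979.7 CPM (log2 fold change -0.37, SE 0.051, edgeR adjusted p = 5.12e-05), a change that did not pass the test against a minimum of 1.2-fold. HMOX1, heme oxygenase, another target of NRF2, went the other way, from 7.80 and 10.4 to 18.1 and 16.9 CPM (log2 fold change 0.95, SE 0.13, edgeR adjusted p = 4.69e-05). For SLC7A11 decitabine alone left 60.5 and 52.8 CPM and talazoparib alone 35.9 and 39.2, and the combination was separated from decitabine (edgeR adjusted p = 1.05e-05) and not from talazoparib (0.162).

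Of 31 genes of the amino acid response governed by ATF4, 11 fell and 4 rose (omitting 7 and 1, 7 and 1, 8 and 2, 9 and 1), with a median of -0.14. SLC6A9, a glycine transporter, had 17.4 and 16.4 CPM with vehicle and 8.41 and 7.66 with the combination (log2 fold change -1.08, SE 0.13, edgeR adjusted p = 1.26e-05), and SLC7A11 belongs to this list as well. ATF5, a factor of the same family as ATF4, rose from 24.7 and 26.2 to 37.8 and 35.2 CPM (log2 fold change 0.52, SE 0.084, edgeR adjusted p = 2.70e-04). Of 23 cytosolic transfer RNA synthetase genes 6 fell and 1 rose (omitting 2 and 0, 2 and 0, 2 and 1, 4 and 0).

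Ion channels included a group that rose. Of 35 calcium, sodium and transient receptor potential channel genes, 13 rose and 3 fell (omitting 10 and 2, 9 and 1, 11 and 1, 13 and 2), and the median log2 fold change was 0.41. TRPV3 and TRPV4, cation channels opened by warmth, rose from 10.4 and 10.7 to 23.9 and 25.9 CPM (log2 fold change 1.24, SE 0.10, edgeR adjusted p = 1.86e-07) and from 5.61 and 5.53 to 13.3 and 12.3 CPM (log2 fold change 1.198, SE 0.14, edgeR adjusted p = 7.51e-06). SCNN1A, the alpha subunit of the epithelial sodium channel, fell from 332 and 341 to 251 and 223 CPM (log2 fold change -0.51, SE 0.074, edgeR adjusted p = 1.09e-04). Among 43 potassium channel genes 5 rose and 4 fell (omitting 4 and 2, 4 and 2, 4 and 2, 4 and 3). Of the potassium channels 20.9% were called, and of the bile secretion and transport genes below 13.6%, against 18.7% of all genes tested. Among protein-coding genes alone 16.8% were called higher and 9.63% lower. KCNK6, a background potassium channel, rose from 17.5 and 17.7 to 33.6 and 36.0 CPM (log2 fold change 0.98). KCNV2, a silent channel subunit, fell from 2.04 and 2.77 to 0.729 and 0.862 CPM (log2 fold change -1.58). Of 22 genes of bile secretion and transport 2 rose and 1 fell (omitting 1 and 1, 1 and 1, 2 and 1, 1 and 1), the latter being ABCC3, an exporter of bile salts and conjugates, which went from 185 and 180.4 to 105 and 95.8 CPM (log2 fold change -0.86, SE 0.073, edgeR adjusted p = 2.86e-07).

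Secreted proteins of coagulation and their protease relatives formed another set. Of 31 complement and coagulation genes 10 rose and 0 fell, with a median of 0.24. C3, the central complement component, rose from 857 and 852 to 1208 and 1151 CPM (log2 fold change 0.46, SE 0.049, edgeR adjusted p = 3.17e-06), and C4BPB, a chain of the complement inhibitor C4b-binding protein, from 9.84 and 7.84 to 18.96 and 21.1 CPM (log2 fold change 1.18, SE 0.13, edgeR adjusted p = 5.51e-06). PROCR, the endothelial protein C receptor, had 6.03 and 6.25 CPM with vehicle and 18.3 and 16.6 with the combination (log2 fold change 1.502, SE 0.12, edgeR adjusted p = 1.33e-07). VWF, von Willebrand factor, had 2.11 and 2.27 CPM with vehicle and 7.77 and 5.96 with the combination (log2 fold change 1.64, SE 0.20, edgeR adjusted p = 1.71e-05). KLK5, a kallikrein of epithelia, rose from 27.8 and 27.4 to 54.6 and 58.4 CPM (log2 fold change 1.03, SE 0.078, edgeR adjusted p = 5.71e-08), and PI3, the elastase inhibitor elafin, from 0.658 and 0.682 to 2.44 and 3.31 CPM (log2 fold change 2.10, SE 0.29, edgeR adjusted p = 6.39e-05). Of 29 serine proteases and their inhibitors 10 rose and 4 fell (omitting 6 and 1, 7 and 0, 9 and 1, 8 and 2). Since VWF also marks endothelium, that marker list was read as a whole: 4 of its 8 genes reached 1 CPM in some library, its summed level was 22.0 to 23.9 CPM with vehicle and 32.9 to 33.5 CPM with the combination, EMCN was at 0 in these 4 libraries, and KDR and ERG were at 0 in some of them. PECAM1 had 3.88 and 4.24 CPM with vehicle and 3.56 and 4.65 with the combination. CLDN5 had 1.04 and 1.48 CPM with vehicle and 1.93 and 1.31 with the combination. Neither was called (edgeR adjusted p = 0.955 and 0.52), whereas TIE1, described below, was called higher from a level near 0. CDH5, the cadherin of endothelium, was called higher (log2 fold change 0.36, SE 0.11, edgeR adjusted p = 0.0328), but lost its call without either vehicle library, without combination replicate 2, with upper-quartile scaling, with the replicate block by library series and against a minimum change of 1.2-fold. The part of other cells in the rise of VWF was not tested. Fibroblast markers summed to at most 1.68 CPM in any EGI-1 library, and hepatocyte markers to between 23.4 and 28.7 CPM over these 4. SERPINA1 made most of the hepatocyte sum, with 21.8 and 26.4 CPM with vehicle and 21.7 and 26.6 with the combination. Each other hepatocyte marker had at most 1.59 CPM in these 4 libraries.

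Several enzymes of hormone and xenobiotic handling changed. Of 33 genes of cytochromes P450, glucuronosyltransferases and aldehyde dehydrogenases 9 rose and 5 fell (omitting 5 and 4, 3 and 3, 5 and 4, 7 and 2), and of 21 glucocorticoid targets, among which MAOA is counted, 7 rose and 4 fell (omitting 5 and 2, 4 and 1, 5 and 1, 5 and 2). STS, steroid sulfatase, which frees steroids from their sulfates, had 83.4 and 77.7 CPM with vehicle, 59.6 and 74.7 with decitabine, 51.0 and 52.5 with talazoparib and 33.8 and 31.4 with the combination (log2 fold change -1.31, SE 0.093, edgeR adjusted p = 3.37e-08). MAOA, monoamine oxidase A, rose from 7.10 and 7.12 to 19.01 and 20.9 CPM (log2 fold change 1.49, SE 0.12, edgeR adjusted p = 2.09e-07). CYP1B1, a cytochrome P450 of the aryl hydrocarbon response, fell from 38.8 and 41.8 to 21.4 and 21.2 CPM (log2 fold change -0.92, SE 0.09, edgeR adjusted p = 1.47e-06), as did ALDH3A2, a fatty aldehyde dehydrogenase, from 105 and 95.2 to 63.03 and 66.03 CPM (log2 fold change -0.63, SE 0.069, edgeR adjusted p = 4.49e-06). STS and MAOA differed in the combination from both single agents, with edgeR adjusted p = 1.29e-06 and 6.53e-04 for STS against decitabine and talazoparib, and edgeR adjusted p = 4.32e-05 and 0.00343 for MAOA. PCDH7, a protocadherin, fell from 180.5 and 180.2 to 98.9 and 98.6 CPM (log2 fold change -0.87, SE 0.063, edgeR adjusted p = 3.99e-08), with 108 and 107 CPM with talazoparib alone, from which it was not separated (edgeR adjusted p = 0.422). PTMA, prothymosin alpha, a small acidic nuclear protein, fell from 406 and 399.5 to 254 and 251 CPM (log2 fold change -0.67, SE 0.056, edgeR adjusted p = 2.24e-07).

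Among transcription factors, 8 of 21 Krüppel-like and SP factors fell and 2 rose (omitting 4 and 0, 4 and 1, 5 and 0, 6 and 2), with a median of -0.25, or -0.06 without combination replicate 1. SP1, a factor that binds GC boxes in many promoters, had 205 and 207 CPM with vehicle and 135 and 137 with the combination (log2 fold change -0.60, SE 0.075, edgeR adjusted p = 2.04e-05), and SP2 had 45.5 and 49.3 CPM with vehicle and 34.9 and 34.1 with the combination (log2 fold change -0.46, SE 0.077, edgeR adjusted p = 4.36e-04). Of 36 nuclear receptors 4 rose and 8 fell (omitting 2 and 2, 2 and 2, 3 and 5, 3 and 4). PPARD, a receptor for fatty acids, rose from 88.1 and 89.5 to 160.7 and 157 CPM (log2 fold change 0.84, SE 0.06, edgeR adjusted p = 3.54e-08), and was above both decitabine (edgeR adjusted p = 1.33e-05) and talazoparib (2.76e-04). NR4A1, an early response receptor, rose from 7.76 and 9.09 to 16.1 and 14.7 CPM, and NR6A1, a germ cell receptor, fell from 17.7 and 17.6 to 12.4 and 11.2 CPM (log2 fold change 0.87 and -0.58). In the SOX and FOX families 6 of 34 rose and 2 fell (omitting 4 and 2, 6 and 1, 5 and 2, 6 and 1). Besides SOX9, FOXD1 rose from 20.5 and 22.7 to 47.9 and 48.2 CPM (log2 fold change 1.16, SE 0.14, edgeR adjusted p = 1.06e-04), and SOX4 fell from 165.8 and 176 to 116 and 115 CPM (log2 fold change -0.57, SE 0.091, edgeR adjusted p = 4.96e-04). LEF1, a nuclear factor of the Wnt pathway that T cells also express, had 1.59 and 2.08 CPM with vehicle and 3.78 and 7.38 with the combination (log2 fold change 1.62, SE 0.29, edgeR adjusted p = 0.0012), the higher value again in the library with lymphocyte transcripts, and without that library its log2 fold change was 1.04 and it kept its call.

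Chromatin enzymes were altered singly. Of 30 histone deacetylases, acetyltransferases and sirtuins 8 fell and 4 rose (omitting 6 and 2, 5 and 2, 7 and 2, 7 and 4). HDAC4 fell from 56.8 and 58.0 to 38.1 and 35 CPM (log2 fold change -0.65, SE 0.087, edgeR adjusted p = 3.95e-05) and HDAC5, of the same class, rose from 29.4 and 29.6 to 47.8 and 45.3 CPM (log2 fold change 0.66, SE 0.086, edgeR adjusted p = 3.51e-05). KAT6B, an acetyltransferase of histone H3, fell from 42.0 and 42.5 to 27.5 and 26.7 CPM (log2 fold change -0.64, SE 0.077, edgeR adjusted p = 1.40e-05). Of 41 polycomb and trithorax genes 5 fell and 1 rose (omitting 3 and 1, 3 and 1, 3 and 1, 3 and 1). Of this list 14.6% were called, below the 18.7% of all genes tested. EZH2, the methyltransferase of polycomb repressive complex 2, had 55.6 and 54.5 CPM with vehicle and 38.2 and 39.6 with the combination (log2 fold change -0.50, SE 0.074, edgeR adjusted p = 1.20e-04).

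Of 63 genes of the spliceosome and its regulators 19 fell and 0 rose (omitting 9 and 0, 6 and 0, 11 and 0, 17 and 0), with a median of -0.13. PRPF3, a protein of the U4/U6 particle, had 75.6 and 78.8 CPM with vehicle and 53.97 and 57.3 with the combination (log2 fold change -0.47, SE 0.07, edgeR adjusted p = 1.17e-04). TRA2B and HNRNPU, which bind nascent RNA and steer splice site choice, fell by 0.37 and 0.37 on the log2 scale, and neither passed the test against a minimum change of 1.2-fold. Of 47 genes of intraflagellar transport and the basal body, which build cilia, 15 fell and 2 rose (omitting 4 and 0, 3 and 1, 6 and 0, 5 and 1). IFT88, a core protein of that transport, had 5.30 and 5.99 CPM with vehicle and 3.003 and 3.90 with the combination (log2 fold change -0.70, SE 0.17, edgeR adjusted p = 0.00888), and it lost its call without combination replicate 1 and without vehicle replicate 2. Other cell machines had shares near or below those of all genes. Of 74 nuclear genes of the respiratory chain 3 rose and 2 fell (omitting 1 and 1, 1 and 1, 2 and 1, 0 and 1), and of 76 mitochondrial ribosomal protein genes 4 rose and 4 fell (omitting 1 and 3, 0 and 1, 2 and 3, 1 and 2). Of 56 ribosome biogenesis genes 4 rose and 2 fell (omitting 1 and 1, 1 and 1, 4 and 1, 2 and 1), and of 30 genes of the endoplasmic reticulum and unfolded protein response 4 rose and 2 fell (omitting 2 and 0, 2 and 0, 3 and 1, 3 and 1). Of 22 heat shock genes 3 rose and 1 fell (omitting 2 and 0, 2 and 0, 2 and 0, 3 and 0), and of 32 nuclear pore genes 0 rose and 2 fell (omitting 0 and 1, 0 and 1, 0 and 1, 0 and 1). None of the 13 mitochondrially encoded chain genes was called by edgeR over the 8 libraries or by DESeq2, 8 were called lower by edgeR with the vehicle and combination libraries alone, and MT-CO1, cytochrome oxidase subunit 1, had 8431 and 7952 CPM with vehicle and 6884 and 7274 with the combination. In the proteasome list 5 of 34 rose and 1 fell (omitting 1 and 0, 2 and 0, 2 and 0, 2 and 0). PSMD2, a subunit of the regulatory cap, rose from 428 and 419.9 to 610.4 and 619 CPM (log2 fold change 0.54, SE 0.052, edgeR adjusted p = 1.28e-06).

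**Figure D3:**
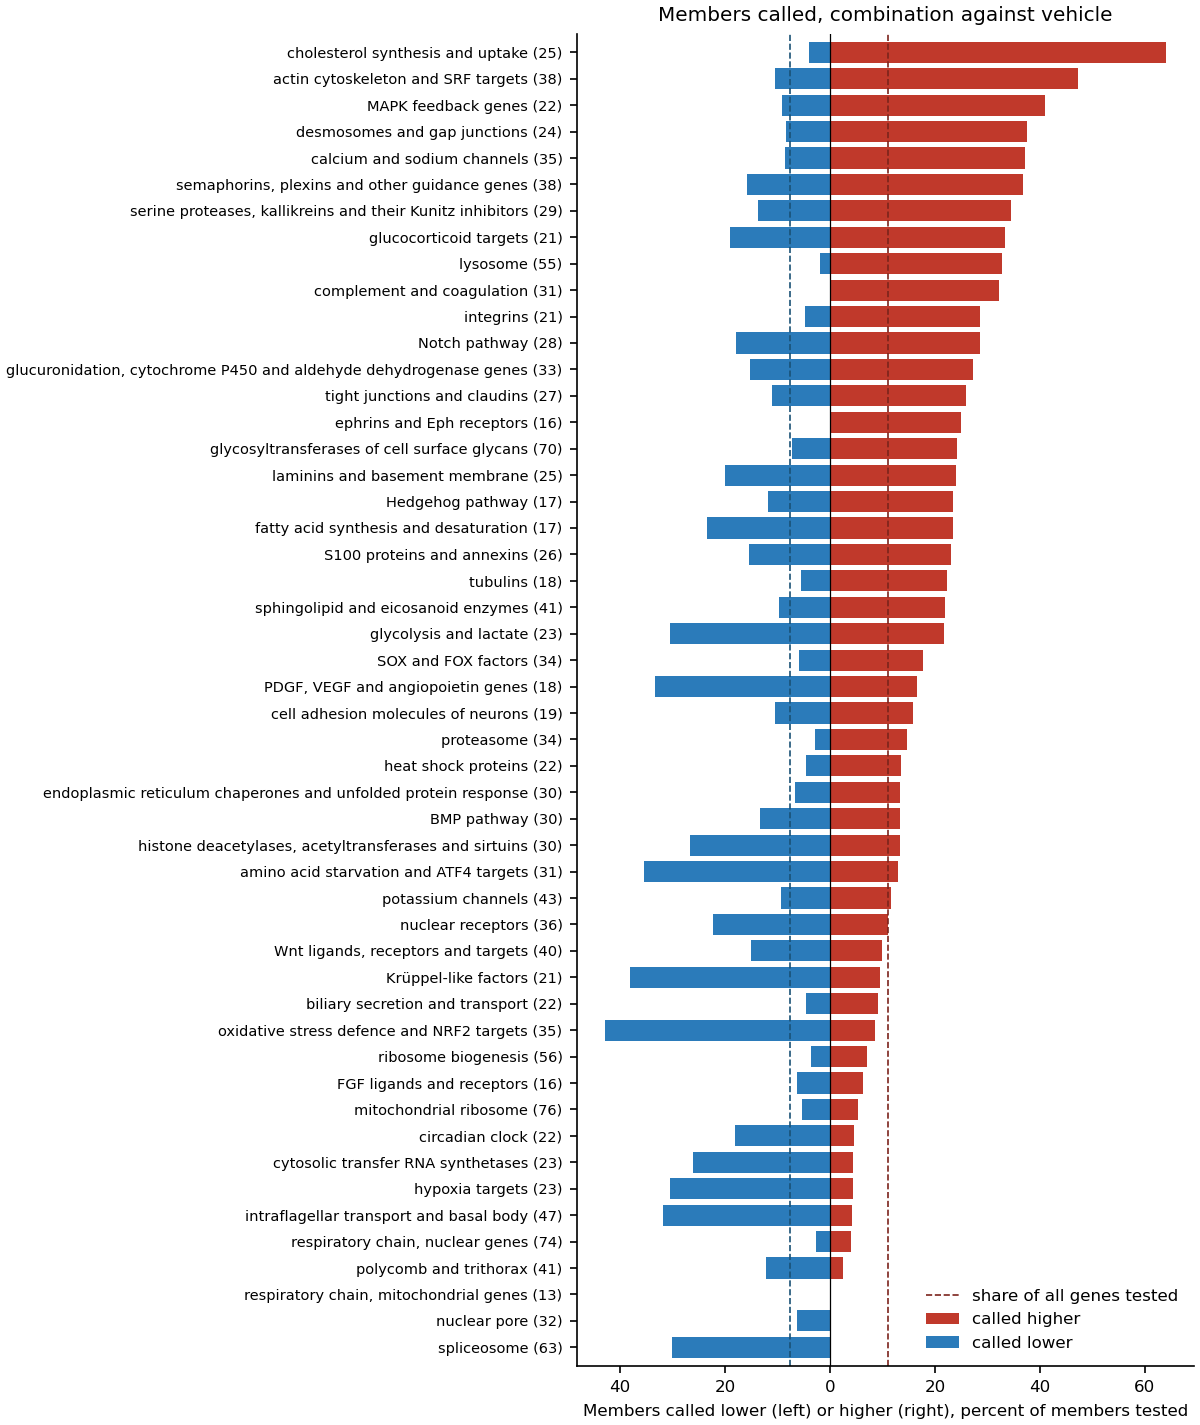
Share of tested members called higher (red, right) and lower (blue, left) with the combination against vehicle, for each gene list with at least 10 members tested (number in brackets). Dashed lines mark the shares over all genes tested, 11.1% and 7.61%. Over protein-coding genes alone the shares were 16.8% and 9.63%. The cholesterol list reaches farthest to the right and the oxidative stress list farthest to the left.

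Surface glycans and calcium-binding proteins changed in part. Of 70 glycosyltransferase genes 17 rose and 5 fell (omitting 8 and 3, 9 and 3, 14 and 3, 11 and 4). GALNT5, which starts mucin-type O-glycans, rose from 88.9 and 91.2 to 162.4 and 170.4 CPM (log2 fold change 0.89, SE 0.063, edgeR adjusted p = 3.24e-08), and B3GALT5, which builds type 1 glycan chains, fell from 160.2 and 160.8 to 107 and 109 CPM (log2 fold change -0.57, SE 0.06, edgeR adjusted p = 2.88e-06). In neither gene was the combination separated from talazoparib (edgeR adjusted p = 0.418 and 0.224). Of 26 S100 and annexin genes 6 rose and 4 fell (omitting 3 and 4, 2 and 4, 3 and 4, 5 and 4). ANXA6, a membrane-binding annexin, rose from 104 and 101 to 169 and 166.7 CPM (log2 fold change 0.71, SE 0.062, edgeR adjusted p = 3.64e-07), while S100A4 and S100A6, small calcium sensors, fell from 218 and 215 to 143 and 151 CPM and from 428 and 416 to 308.9 and 288 CPM (log2 fold change -0.56 and -0.50). S100A4 was uneven with decitabine alone, at 163.3 and 214 CPM.

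Of 40 Wnt genes 4 rose and 6 fell (omitting 3 and 3, 4 and 4, 4 and 6, 4 and 5), WNT5B, a Wnt ligand, rising from 5.20 and 4.24 to 8.28 and 7.86 CPM (log2 fold change 0.77, SE 0.15, edgeR adjusted p = 0.00152). Of 17 Hedgehog genes 4 rose and 2 fell (omitting 1 and 1, 1 and 1, 1 and 1, 2 and 1). SHH, a Hedgehog ligand, fell from 19.3 and 18 to 7.55 and 6.31 CPM (log2 fold change -1.43, SE 0.14, edgeR adjusted p = 1.47e-06). HHAT, the acyltransferase that makes Hedgehog ligands active, rose from 9.01 and 8.03 to 16.4 and 16.6 CPM (log2 fold change 0.95, SE 0.12, edgeR adjusted p = 2.12e-05). Of 16 ephrins and Eph receptors 4 rose and 0 fell (omitting 1 and 0, 1 and 0, 1 and 0, 1 and 1), of 19 neuronal adhesion genes 3 rose and 2 fell (omitting 2 and 0, 2 and 0, 2 and 1, 2 and 1), and of 22 circadian clock genes 1 rose and 4 fell (omitting 0 and 1, 0 and 2, 1 and 3, 0 and 2). TEF, a PAR bZIP factor of the clock, fell from 19.6 and 19.4 to 12.7 and 11.8 CPM (log2 fold change -0.68, SE 0.10, edgeR adjusted p = 1.40e-04), and the call of NLGN2, an adhesion protein of synapses, was a rise from 45.4 and 45.9 to 69.0 and 64.9 CPM (log2 fold change 0.55, SE 0.10, edgeR adjusted p = 0.00126). Of 8 class II antigen presentation genes 1 rose and 1 fell (omitting 0 and 0, 0 and 0, 0 and 0, 0 and 0), and of 2 globin genes tested 1 rose.

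Some genes were close to silent in vehicle. In all, 30 genes with at most 3 counts in each vehicle library were called, and TIE1, NHLRC4, SERPING1 and C16orf54 were among the 5 with the highest combination level. Genes this low in vehicle pass the filter on low counts only through other arms, so they could hardly be called lower. The number of such genes tested is not given here, so the 30 calls cannot be set against a share. Ratios of summed counts, each over its library totals, are given for TIE1 and NHLRC4 with exact 95% intervals, which cover counting error only. Both genes were chosen as called and for a high level with the combination. A raised ratio and a call thus follow from that choice, which the intervals do not allow for. Fits with a library left out use the same counts and add no separate evidence. TIE1, an endothelial receptor tyrosine kinase, had 2 and 0 counts with vehicle and 20 and 26 with the combination, a ratio of 24.1 (6.31 to 205). NHLRC4 had 2 and 1 counts and 23 and 21, a ratio of 15.4 (4.93 to 77.5). For both genes the combination replicates lay close together and the call held with any library left out. C16orf54 and SERPING1, the C1 inhibitor, did not behave so: C16orf54 had 9 counts in combination replicate 1 and 37 in replicate 2, SERPING1 had 12 and 34, and neither kept its call without combination replicate 2, nor C16orf54 without vehicle replicate 1.

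Shares of called genes differed by gene class. Of 13765 protein-coding genes tested 16.8% were higher and 9.63% lower, of 4749 long noncoding RNA genes 2.88% and 5.07%, and of 1937 processed pseudogenes 0.568% and 3.41%. Level moved with these shares: among genes with a mean of up to 0.693 CPM in vehicle 5.76% were higher and 0.736% lower, and among those at 53.5 CPM or more 16.7% and 14.6%. The filter on low counts admits genes low in vehicle through other arms. Its part in the split of the lowest group was not tested. Among noncoding RNAs, LINC02725 had 0.797 and 0.493 CPM with vehicle and 2.10 and 2.38 with the combination (log2 fold change 1.78, SE 0.30, edgeR adjusted p = 3.73e-04), and PCAT6 had 1.04 and 0.796 CPM with vehicle and 3.30 and 2.24 with the combination (log2 fold change 1.57, SE 0.29, edgeR adjusted p = 9.00e-04). LINC01559 fell from 18.1 and 16.6 to 7.42 and 7.38 CPM (log2 fold change -1.23, SE 0.15, edgeR adjusted p = 1.69e-05), and HELLPAR from 25.9 and 23.9 to 11.97 and 8.24 CPM (log2 fold change -1.31, SE 0.14, edgeR adjusted p = 3.96e-06), where a gene on the opposite strand overlaps. Over the autosomes, the share called higher ran from 7.74% on chromosome 13 to 16.6% on chromosome 20.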

How the data were processed

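RNA of the 8 EGI-1 libraries was sequenced on an Illumina instrument. The authors deposited raw counts, 1 whole number of reads per gene and library, with no normalization. Per the labels and the study's methods, the processing notes name fastp, Trim Galore, HISAT2 and featureCounts on GRCh38, while the methods name fastp, STAR and RSEM, so which program made the counts is not given unambiguously. The study's methods name a stranded library kit. Annotation, the strand setting of the counting and the handling of reads that match several genes are not given in the sources used here, and the talazoparib column names include 50, whereas the labels give 200 nM. Symbols came from GENCODE 44 (60437 of 60651 identifiers matched, 214 not), and promoter windows from RefSeq by symbol (27305 symbols, first listed window).

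All 8 libraries were fitted together with edgeR 4.0.16 in R 4.3.3 (filterByExpr by arm, TMM, robust quasi-likelihood F-test), and p-values were adjusted over 22406 genes by Benjamini-Hochberg, with 0.05 as the threshold. No permutation test was used, since 2 against 2 cannot go below an exact p of 0.333. Alternatives were DESeq2 1.42.0, other scaling and filters, a replicate block, a minimum change of 1.2-fold, a fit of 4 libraries alone and each library left out. Library totals ran from 23139065 to 33181930 and TMM factors from 0.99 to 1.01. Between replicates the chi-square per gene was 2.56 to 9.24, above counting noise.

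Named genes had both combination libraries on one side of both vehicle libraries, and histone genes and the study's heat-map genes were left out. They were taken from the 3 called members with the largest change in each direction of each of 52 gene lists (mean log2 CPM of 0 or more, and the most abundant member where none was called), the 10 with the smallest p and the 10 with the largest CPM difference in each direction, the 5 long noncoding RNAs with the largest change in each direction, and the 5 highest of those at 3 counts or fewer in both vehicle libraries. Genes that mark cell types, and EMCN, KDR and ERG among them, are named besides. Some genes that the rule covers are not reported here. Members and lists were chosen with earlier results of these data known, and the 30 lymphocyte genes after the values were seen.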

Additional observations from a re-analysis of the deposited data

How the results depend on the processing

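Against vehicle, 2489 genes were higher and 1705 lower, and against decitabine and talazoparib 1720 and 431 were called. With another scaling, DESeq2, other filters, the vehicle and combination libraries alone, or without the 88 genes called higher and 45 called lower whose CPM in combination replicate 2 was 1.5 times that in replicate 1 or more (chosen after seeing the data), counts against vehicle stayed within 1.5 times. Testing against a minimum change of 1.2-fold left 1035 higher, 422 lower, 367 against decitabine and 113 against talazoparib. Without the filter on low counts the last was 897. Leaving out each library gave 1236 to 3023 higher, 614 to 2265 lower, 853 to 2544 against decitabine and 111 to 1007 against talazoparib. None of the called genes counted above as named changed direction in any of these fits. The cause of lost calls was not tested. The uncalled EPCAM and KRT19, at log2 fold changes of 0.00148 and 0.00874, turned to -0.0344 and -0.0271 with upper-quartile scaling, and without each library they ran from -0.00182 to 0.00609 and from -0.0312 to 0.0489. A replicate block by sample titles gave 2181 higher and 1335 lower, 1227 against decitabine and 249 against talazoparib, and a block by the library series in the names 2211 and 1406. The numbers did not pair the samples: correlations of deviations between same-numbered vehicle and combination libraries were -0.04 by title and 0.04 by series, and over all pairs of arms they ran from -0.26 to 0.21. With 2 libraries an arm and a depth of 23139065 counts or more, genes near the floor are measured with wide counting error, and 1 library of the combination carries lymphocyte transcripts.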
